A study of Rattus norvegicus with 8 samples.

Results

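The genes described here are 8 members of the insulin and insulin-like growth factor (IGF) pathway in the developing rat pineal gland: the ligand Igf1, the receptors Igf1r and Insr, the receptor substrates Irs1 and Irs2, and the IGF-binding proteins Igfbp2, Igfbp3 and Igfbp5. They were taken by gene symbol from a series of 16462 symbols, in which they have 11 of 16932 RefSeq transcripts. Of these 11 transcripts 8, 1 for each gene, passed the filter used for testing, 1 FPKM or more in 2 or more libraries. FPKM counts fragments per kilobase of a transcript, scaled to the sequencing depth of the library. The remaining 3 transcripts are minor forms of Igf1, none above 1.23 FPKM in any library. Pineal glands came from Sprague-Dawley rats, with no allele, transgene or drug in the labels, kept in 14 h of light and 10 h of dark. Ages were embryonic day 21 (called E21) and postnatal day 5, 20 or 40 (called P5, P20 or P40), and glands were taken at mid-night (zeitgeber time 19) or mid-day (zeitgeber time 7). Each age and time is 1 library of pooled glands: the mid-night pools held 15 (E21), 19 (P5), 10 (P20) and 3 (P40) animals, and the mid-day pools 13, 17, 13 and 3 in the same order of ages. With no repeat of any age and time, p-values rest on the spread left in models that share information between ages.

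Insulin and IGF-1 bind receptor tyrosine kinases, encoded by Insr and Igf1r, which phosphorylate insulin receptor substrates. The substrates dock phosphatidylinositol 3-kinase (PI3K), and the kinase Akt then acts on growth, protein synthesis and FoxO transcription factors. Binding proteins in the extracellular fluid hold IGFs and set how much reaches the receptor. The pineal gland makes melatonin at night, when noradrenaline from sympathetic fibres raises cyclic AMP in pinealocytes. In pancreatic beta cells of the mouse, Irs2 is known as a gene induced by cyclic AMP.

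In outline, a receptor and a substrate of the pathway, Igf1r and Irs2, were higher at mid-night than at mid-day at P20 and P40, by 5.53-fold and 20.9-fold on the FPKM + 1 scale. No night effect passed the test for their close relatives Insr and Irs1 at the same ages. The ligand Igf1 and the binding protein Igfbp2 fell between E21 and P40, while the binding protein Igfbp5 and, less firmly, Irs1 rose. Tests used limma across all 9960 transcripts past that filter, on log2(FPKM + 1), and a call was a Benjamini-Hochberg adjusted p under 0.05. On this scale changes of genes near 1 FPKM are understated.

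The labels were checked against marker genes. All 10 pinealocyte markers were found, and Aanat, which encodes the enzyme that times melatonin synthesis, had 572 FPKM at mid-night and 6.21 FPKM at mid-day at P20, and 321 and 1.72 FPKM at P40. It had 225 FPKM at mid-night and 153 FPKM at mid-day at P5, and 9.45 and 13.5 FPKM at E21, where mid-day was the higher, so that Aanat does not check the times of the E21 libraries and separates those of P5 little. Markers of the choroid plexus stood out in the P5 mid-night library, where 12 of them summed to 18520 FPKM. Ttr alone had 17320 FPKM there. The sum was 3349 FPKM in the P5 mid-day library, of which Ttr had 2889 FPKM, and 696 to 1683 FPKM at the other ages. These 12 markers include Otx2, which is also among the 10 pinealocyte markers and had 134 to 274 FPKM over the 8 libraries. Relative depth ran upward of 0.41 of the deepest library, so that 1 FPKM stood for 14.7 to 35.8 fragments per kilobase. The median log2 change over all tested transcripts was -0.18 for P40 against E21, -0.18 for P20 against P5 and -0.11 for the night effect of the older ages, and member changes are to be read against these.

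**Figure D1:**
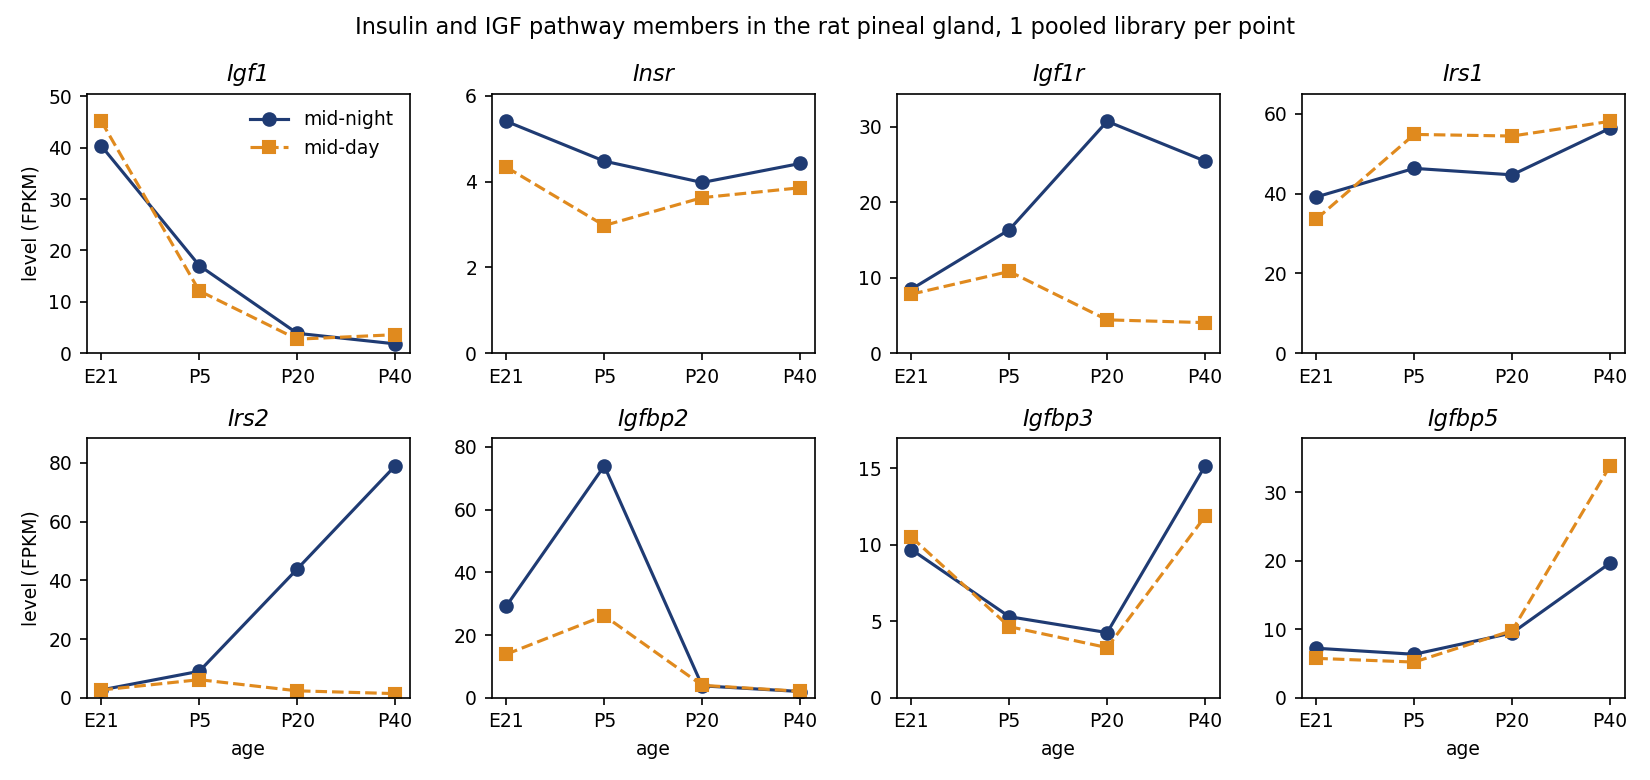
Level (FPKM) of the 8 genes at E21, P5, P20 and P40, with circles and solid lines for mid-night and squares and dashed lines for mid-day; each point is 1 pooled library, and each panel has its own linear axis from 0. The mid-night and mid-day lines of Igf1r and Irs2 part at P20 and P40, where Irs2 reached 43.9 and 79.0 FPKM at mid-night and 2.38 and 1.44 FPKM at mid-day.

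Igf1 encodes IGF-1, the growth factor that activates the receptor encoded by Igf1r. Its main transcript (NM_001082479, rn4 chr7:24531668-24605742) carried at least 93.95% of the summed FPKM of the 4 Igf1 transcripts. It had 40.4 FPKM at mid-night and 45.1 FPKM at mid-day at E21, 17.1 and 12.1 FPKM at P5, 3.88 and 2.74 FPKM at P20, and 1.83 and 3.61 FPKM at P40. Both E21 libraries lay above both P5 libraries, and these above all libraries of P20 and P40, where neighbouring levels were mostly within the spread of a difference between 2 libraries (0.39 on the log2 scale for this gene; the gap below P20 mid-day was 0.40). Igf1 fell by 3.60 ± 0.29 (SE) on the log2 scale at P40 against E21 (limma adjusted p = 0.000106). In this comparison 2 of the 8 genes were lower and 2 higher, while 26.9% of all tested transcripts were lower and 16.1% higher. Igf1 also fell at P5 against E21, with a log2 change of -1.50 ± 0.29 (limma adjusted p = 0.0129; 2 of the 8 genes lower, against 6.84% of all tested transcripts). It fell again at P20 against P5, with a log2 change of -1.85 ± 0.29 (limma adjusted p = 0.0124; 2 of the 8 genes lower, against 5.99% of all). The first of these steps was lost without the E21 mid-day library (limma adjusted p = 0.0776) or the P5 mid-day library (0.122), and the next step without P5 mid-night (0.138), P20 mid-day (0.0775) or P20 mid-night (0.0752). Time of day gave no called change, with log2 values of -0.16 ± 0.27 at P20 and P40 and 0.15 ± 0.27 at E21 and P5.

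Markers of some other cell types moved in the same direction as Igf1. From E21 to P40, 8 of 12 fibroblast and meninges markers fell, 3 were not called and 1, Dpt, rose by 3.63 ± 0.18 on the log2 scale. Of the tested markers, 6 of 7 for endothelium and 7 of 7 for dividing cells fell. Over all tested transcripts 26.9% were lower and 16.1% higher. Their sums in FPKM were 178 to 214 at P40 against 934 to 1316 at E21 for fibroblasts and meninges, and 9.95 to 21.2 at P40 against 117 to 149 at E21 for dividing cells. The endothelial sum was 18.6 to 22.6 FPKM at P40 and 52.1 to 68.8 FPKM at E21, with the endothelial marker Cldn5 listed at 0 in every library. Pinealocyte markers went the other way, with 7 of 10 higher at P40 than at E21. Of 9 tested markers of microglia and macrophages 4 rose and 1 fell, with sums of 53.5 to 67.4 FPKM at P40 and 32.7 to 35.9 FPKM at E21. Of 7 tested glial markers 4 rose and 3 fell, with a sum of 196 FPKM at P40 mid-night against 278 FPKM at E21 mid-night. Slc1a2, counted among the glial markers that rose, has another tested transcript that fell (-1.23 ± 0.28, limma adjusted p = 0.0101). The part of these shifts in the fall of Igf1 was not tested, and fewer cells of a type and less RNA per cell cannot be told apart in whole glands.

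The receptors behaved unlike each other. Igf1r, the IGF-1 receptor (NM_052807, rn4 chr1:122704973-122990002), had 8.49 FPKM at mid-night and 7.83 FPKM at mid-day at E21, 16.4 and 10.8 FPKM at P5, 30.7 and 4.43 FPKM at P20, and 25.5 and 4.06 FPKM at P40. The mid-night libraries of P20 and P40 were its highest and the mid-day libraries of the same ages its lowest, with E21 and P5 between them. Neighbours in this order differed beyond the spread of a difference (0.25 on the log2 scale) in 5 of 7 places, and lay within it between the E21 libraries and between P20 and P40 at mid-day. As FPKM ratios, mid-night exceeded mid-day 1.09-fold at E21, 1.51-fold at P5, 6.94-fold at P20 and 6.27-fold at P40.

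Over P20 and P40, Igf1r rose at mid-night by a log2 change of 2.47 ± 0.18 (SE; limma adjusted p = 0.000696; higher at 2 of 2 ages), the 39th highest of the 9960 transcripts. Irs2 was the other of the 2 of 8 genes called higher here, against 2.8% of all tested transcripts. At E21 and P5 the effect of 0.33 ± 0.18 did not pass (limma adjusted p = 0.995). No member passed there, against 0.0301% of all tested transcripts (3 transcripts; 566 at unadjusted p under 0.05). Tested directly, the night effect of Igf1r was larger at P20 and P40 than at E21 and P5 by 2.14 ± 0.25 on the log2 scale (limma adjusted p = 0.0200), and 2 of the 8 genes were higher in this sense against 0.612% of all. With any 1 of the 8 libraries left out this difference was no longer called, although its value stayed between 1.91 and 2.36.

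Insr, the insulin receptor (NM_017071, rn4 chr12:2934966-3087691), had 5.41 FPKM at mid-night and 4.34 FPKM at mid-day at E21, 4.48 and 2.98 FPKM at P5, 3.98 and 3.63 FPKM at P20, and 4.42 and 3.86 FPKM at P40. It was higher at mid-night at all 4 ages, by 0.26 at E21 and 0.46 at P5 on the log2 scale, beyond the spread of a difference (0.23), and by 0.11 at P20 and 0.16 at P40, within it. Its highest level was 1.82 times its lowest. The night effect was 0.13 ± 0.16 at P20 and P40 (limma adjusted p = 0.702) and 0.36 ± 0.16 at E21 and P5 (limma adjusted p = 0.907). Since FPKM is per length, both receptors can be set side by side. At E21 Igf1r made up 61.1% of their sum at mid-night and 64.4% at mid-day, and at P5 it made up 78.5% at mid-night and 78.4% at mid-day. The mid-night share was 88.5% at P20, against 55.0% at mid-day, and 85.2% at P40, against 51.3% at mid-day. Their sum was therefore mostly Igf1r at night at the later ages and split nearly evenly by day.

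The 250 bases upstream of the gene start are printed for these receptors, because their night levels parted while they serve the same pathway. They come from RefSeq on build GRCr8, at chr1:130959747-130959996 (plus strand) for Igf1r and chr12:6128804-6129053 (minus strand) for Insr, where 7 of the 8 members were matched. Capitals mark the motifs found.
Igf1r: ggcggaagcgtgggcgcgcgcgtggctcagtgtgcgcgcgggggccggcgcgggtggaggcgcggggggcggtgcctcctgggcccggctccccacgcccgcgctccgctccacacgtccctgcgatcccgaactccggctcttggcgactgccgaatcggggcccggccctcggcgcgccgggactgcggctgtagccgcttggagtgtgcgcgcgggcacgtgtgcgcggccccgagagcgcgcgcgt
Insr: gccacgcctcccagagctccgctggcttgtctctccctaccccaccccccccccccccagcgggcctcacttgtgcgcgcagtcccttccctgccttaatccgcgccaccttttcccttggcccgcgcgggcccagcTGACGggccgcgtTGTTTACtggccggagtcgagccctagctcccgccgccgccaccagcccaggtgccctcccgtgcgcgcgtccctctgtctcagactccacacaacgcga
Searched on both strands were the cyclic AMP response element TGACGTCA, its core TGACG, which is part of the full element, and the FoxO motif TGTTTAC. The Igf1r window held none of them and 79.6% G and C. The Insr window held TGACG beginning 113 bases and TGTTTAC beginning 100 bases before the gene start, and 71.2% G and C. Among 33469 promoter windows of the same length, 1.59% held the full element, 18.2% the core and 3.22% the FoxO motif. None of the other 5 matched members, Irs1, Igf1, Igfbp2, Igfbp3 and Igfbp5, held any of these letters in its window.

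Insulin receptor substrates carry the signal from both receptors to PI3K. Irs2 (NM_001168633, rn4 chr16:83379986-83404220) had 2.69 FPKM at mid-night and 2.67 FPKM at mid-day at E21, 9.04 and 6.18 FPKM at P5, 43.9 and 2.38 FPKM at P20, and 79.0 and 1.44 FPKM at P40. Mid-night and mid-day levels were alike at E21, and mid-night was the higher at each later age, most of all at P40. As FPKM ratios, mid-night exceeded mid-day 1.01-fold, 1.46-fold, 18.4-fold and 54.9-fold at E21, P5, P20 and P40. In the order of levels 5 of 7 neighbouring gaps exceeded the spread of a difference (0.42 on the log2 scale). The 2 gaps within it joined E21 mid-night, E21 mid-day and P20 mid-day. The widest gap, 2.16, lay between P20 mid-night and P5 mid-night.

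At P20 and P40 Irs2 rose at mid-night by a log2 change of 4.38 ± 0.30 (SE; limma adjusted p = 0.000566; higher at 2 of 2 ages), the 8th highest of the 9960 transcripts. The effect at E21 and P5 was 0.25 ± 0.30 (limma adjusted p = 0.999). The difference of both effects was 4.14 ± 0.42 (limma adjusted p = 0.0113), again the 8th highest. It was no longer past the threshold when any library of E21 or P5 was left out (limma adjusted p between 0.0808 and 0.141) or with no filter on low values (0.222). With only the P40 pair left at the later ages the night effect was 5.04, and with only the P20 pair 3.73. Of the 12 choroid plexus, 12 fibroblast, 7 endothelial and 7 glial markers tested, none passed for night at P20 and P40. Over all tested transcripts 2.8% were higher and 1.59% lower, so that none among so few is near the share over all. Over the other marker lists Aanat, Mcam (vessel wall) and Pcna (dividing cells) were called higher and none lower.

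The age at which Irs2 and Igf1r changed depended on the time of day. Across E21, P5, P20 and P40 the mid-night level of Irs2 went up at each step (2.69, 9.04, 43.9 and 79.0 FPKM), a total of 29.4-fold from E21 to P40. Its mid-day level was highest at P5 (6.18 FPKM) and lower at P40 than at E21, with a ratio of 0.539. A model with separate night effects for the younger and the older ages was used for these comparisons, an addition made after the data had been seen. It gives P20 and P40 1 shared night effect, although that of Irs2 was 3.73 at P20 and 5.04 at P40. Fitted levels at 1 time of day therefore differ from the observed ones. In this model Irs2 rose at mid-night by a log2 change of 3.99 ± 0.36 at P40 against E21 (limma adjusted p = 0.000241). The fitted mid-day change was -0.14 ± 0.36 (limma adjusted p = 0.780). Igf1r rose at mid-night by 1.41 ± 0.22 (limma adjusted p = 0.00204) and fell at mid-day by 0.73 ± 0.22 (limma adjusted p = 0.0336). At mid-night 3 of 8 genes were higher and 2 lower, against 14.8% and 28.4% of all tested transcripts. At mid-day 1 was higher and 3 lower, against 15.6% and 20.5%. When time of day was taken as 1 effect over all ages, neither gene passed for P40 against E21, with log2 changes of 1.92 ± 1.09 for Irs2 (limma adjusted p = 0.188) and 0.34 ± 0.57 for Igf1r (limma adjusted p = 0.655). For Irs2 that value rested on which library was in: it was 0.11 without P40 mid-night and 3.74 without P40 mid-day, the higher of which was called (limma adjusted p = 0.0305).

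Irs1 (NM_012969, rn4 chr9:81585250-81638071), the other substrate, had 39.1 FPKM at mid-night and 33.6 FPKM at mid-day at E21, 46.3 and 54.8 FPKM at P5, 44.7 and 54.4 FPKM at P20, and 56.4 and 58.1 FPKM at P40. Its highest level was 1.73 times its lowest, no neighbouring pair in the order differed beyond the spread of 0.29, and mid-night lay below mid-day at P5, P20 and P40 but above it at E21. Night effects were -0.16 ± 0.20 at P20 and P40 (limma adjusted p = 0.708) and -0.01 ± 0.20 at E21 and P5 (limma adjusted p = 0.999). Irs1 rose by 0.64 ± 0.20 at P40 against E21 (limma adjusted p = 0.0318). This call was lost after quantile normalization (limma adjusted p = 0.0947) and without E21 mid-day, P40 mid-day or P40 mid-night (log2 changes of 0.443, 0.672 and 0.615). In the model with 2 night effects Irs1 passed at neither time of day. Its change there was 0.57 ± 0.25 at mid-night (limma adjusted p = 0.0994) and 0.72 ± 0.25 at mid-day (0.0558). Over the 4 ages Irs1 did not pass either (limma F test, adjusted p = 0.115).

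Taken per length, Irs2 made up 6.43% of Irs1 plus Irs2 at mid-night and 7.36% at mid-day at E21, and 16.3% and 10.1% at P5. At P20 it made up 49.5% at mid-night and 4.20% at mid-day, and at P40 58.4% and 2.42%. Irs1 was thus the more abundant substrate in all 4 mid-day libraries and at mid-night at E21 and P5. At P20 mid-night both had about the same level, with a ratio of Irs2 to Irs1 of 0.982, and at P40 mid-night Irs2 had 1.40 times the level of Irs1. The P40 mid-day library held 40.4 times as much Irs1 as Irs2. The sum of both substrates was 135 FPKM at mid-night and 59.5 FPKM at mid-day at P40, and 88.5 and 56.8 FPKM at P20. In the P40 mid-night library Irs2 stood above 98.7% of all 16932 transcripts, and in the P40 mid-day library above 51.2%.

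**Figure D2:**
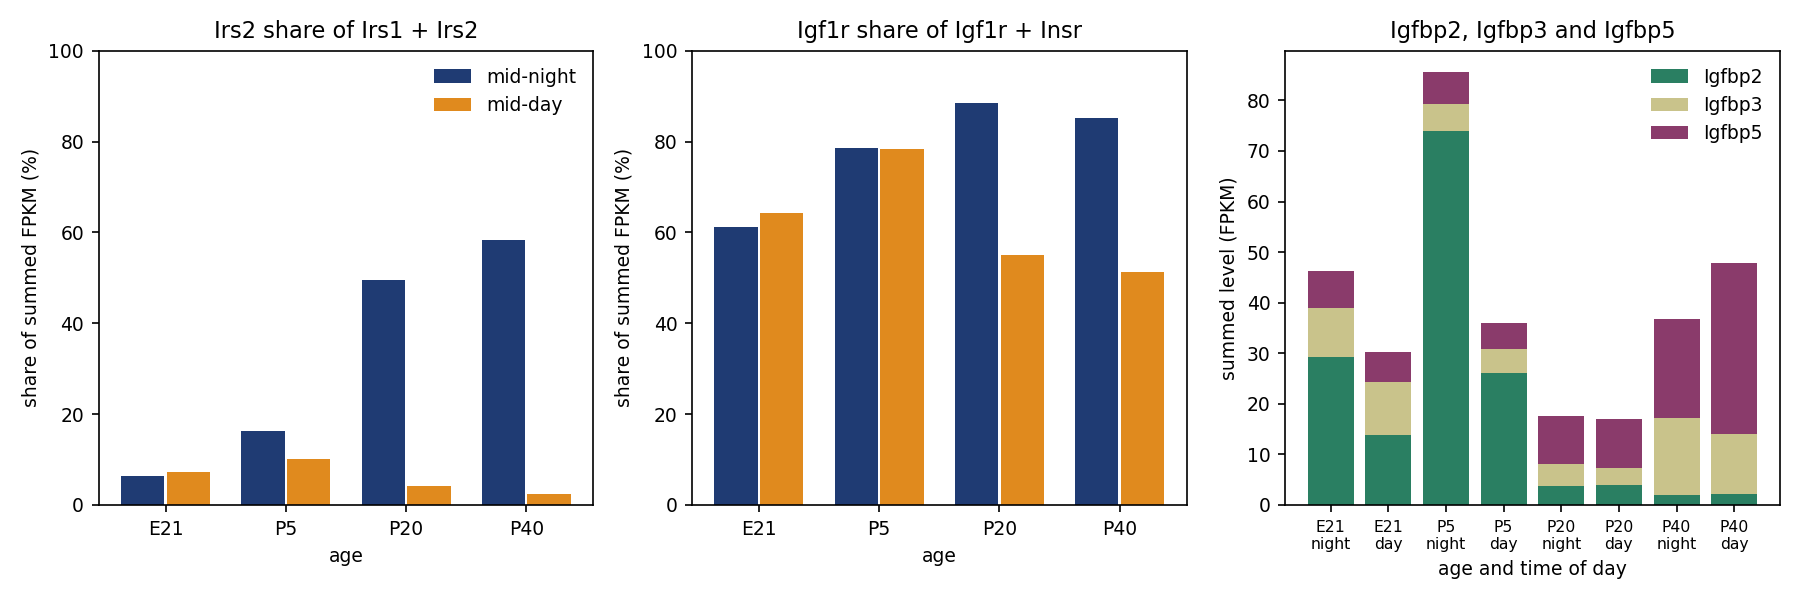
Left, Irs2 as a percent of Irs1 plus Irs2, and middle, Igf1r as a percent of Igf1r plus Insr, at each age, mid-night left of mid-day; right, stacked FPKM of Igfbp2, Igfbp3 and Igfbp5 in the 8 libraries. Each bar is 1 pooled library. The Irs2 share was 58.4% at P40 mid-night and 2.42% at P40 mid-day, and Igfbp2 made up 86.4% of the stacked bar at P5 mid-night and 5.48% at P40 mid-night.

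At single ages, where 1 library stands against 1, a change of at least 2-fold on the FPKM + 1 scale was used as a mark. At P20 and at P40 it was passed upward at mid-night by Irs2 and Igf1r, 2 of 8 genes, against 2.44% and 3.04% of all tested transcripts. At E21 and at P5 it was passed upward by Igfbp2 alone, 1 of 8 genes, against 0.783% and 1.55% of all. No member passed it downward at E21, P5, P20 or P40, against 1.25%, 0.301%, 2.72% and 1.33% of all.

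**Figure D3:**
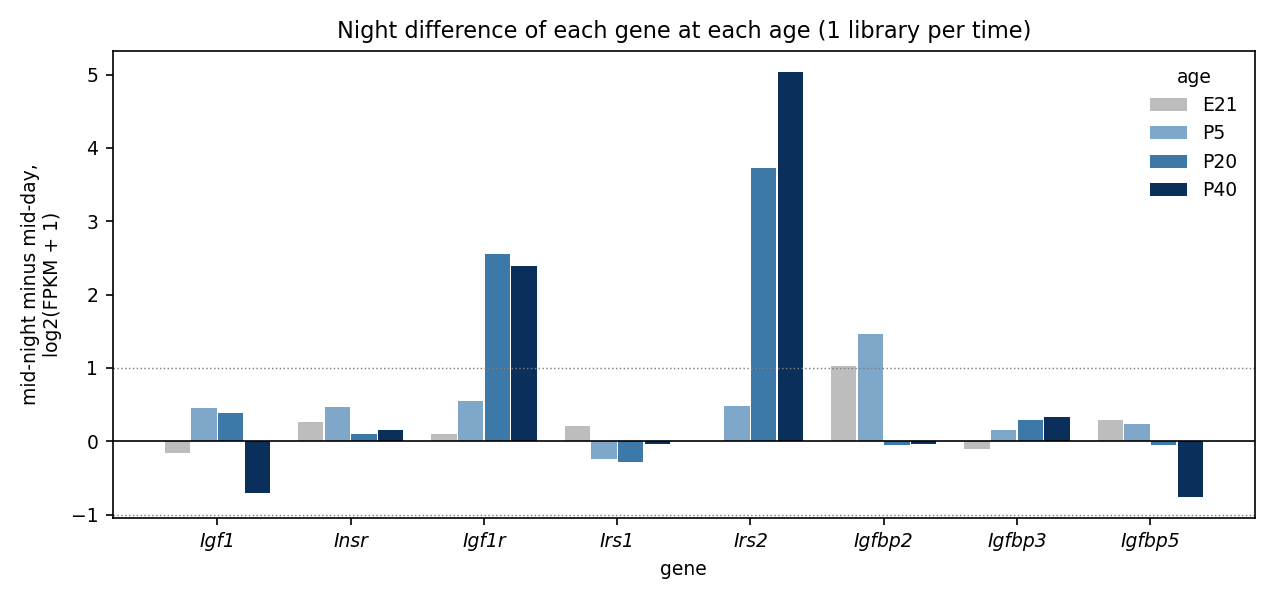
Mid-night minus mid-day difference of log2(FPKM + 1) for each gene at E21, P5, P20 and P40, 1 library per age and time, with dotted lines at a 2-fold change either way. Irs2 and Igf1r exceed the line at P20 (3.73 and 2.55) and P40 (5.04 and 2.39), and Igfbp2 at E21 (1.02) and P5 (1.46).

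The 3 binding proteins followed separate courses. Igfbp2 (NM_013122, rn4 chr9:71966876-71994208), which encodes a carrier of both IGFs, had 29.2 FPKM at mid-night and 13.9 FPKM at mid-day at E21, 73.9 and 26.2 FPKM at P5, 3.82 and 3.98 FPKM at P20, and 2.02 and 2.11 FPKM at P40. Every library of E21 and P5 lay above every library of P20 and P40, and P5 mid-night was the highest by 1.31 on the log2 scale. Igfbp2 fell by 2.79 ± 0.37 at P40 against E21 (limma adjusted p = 0.000963), and at P20 against P5 with a log2 change of -3.20 ± 0.37 (limma adjusted p = 0.00533). The later step was lost without P5 mid-night (limma adjusted p = 0.0573) or P20 mid-night (0.0656). Mid-night exceeded mid-day 2.11-fold at E21 and 2.82-fold at P5, and the ratio was 0.961 at P20 and 0.957 at P40. The night effect at E21 and P5, 1.24 ± 0.17, was the 27th highest of all transcripts but did not pass (unadjusted p = 0.000123, limma adjusted p = 0.153; between 0.0710 and 0.769 over the alternatives). The difference between later and earlier night effects was -1.29 ± 0.25 (limma adjusted p = 0.0742).

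Igfbp2 had its highest library in common with the choroid plexus markers. Their sum was 1683 FPKM at mid-night and 1378 FPKM at mid-day at E21, 18520 and 3349 FPKM at P5, 957 and 696 FPKM at P20, and 1097 and 756 FPKM at P40. Most of each sum was Ttr (17320 FPKM at P5 mid-night), so the sums say little of the other markers. At E21 Enpp2 had 27.1 FPKM at mid-night and 6.69 FPKM at mid-day, and Sostdc1 had 4.86 and 0.39 FPKM. Otx2 was slightly lower at mid-night, with 267 and 274 FPKM. The median night change of the 12 markers at E21 and P5 was 1.46 on the log2 scale, beside 1.24 for Igfbp2 and 0.02 over all tested transcripts. From E21 to P5, 10 of the 12 choroid plexus markers rose, where 1507 of all 9960 tested transcripts were called either way (6.84% lower). From P5 to P20, 10 of 12 fell, against 5.99% of all. For night at E21 and P5, 2 of the 3 transcripts called in the whole series were choroid plexus markers, Sostdc1 and Enpp2, both higher. The fibroblast and meninges sum was 1316 FPKM at mid-night and 934 FPKM at mid-day at E21, and 714 and 530 FPKM at P5. The part of these markers in the levels of Igfbp2 was not tested. Without both P5 libraries the fall of Igfbp2 at P40 against E21 remained called. The P5 libraries enter that comparison only through its error, so this run does not bear on the part of these markers.

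**Figure D4:**
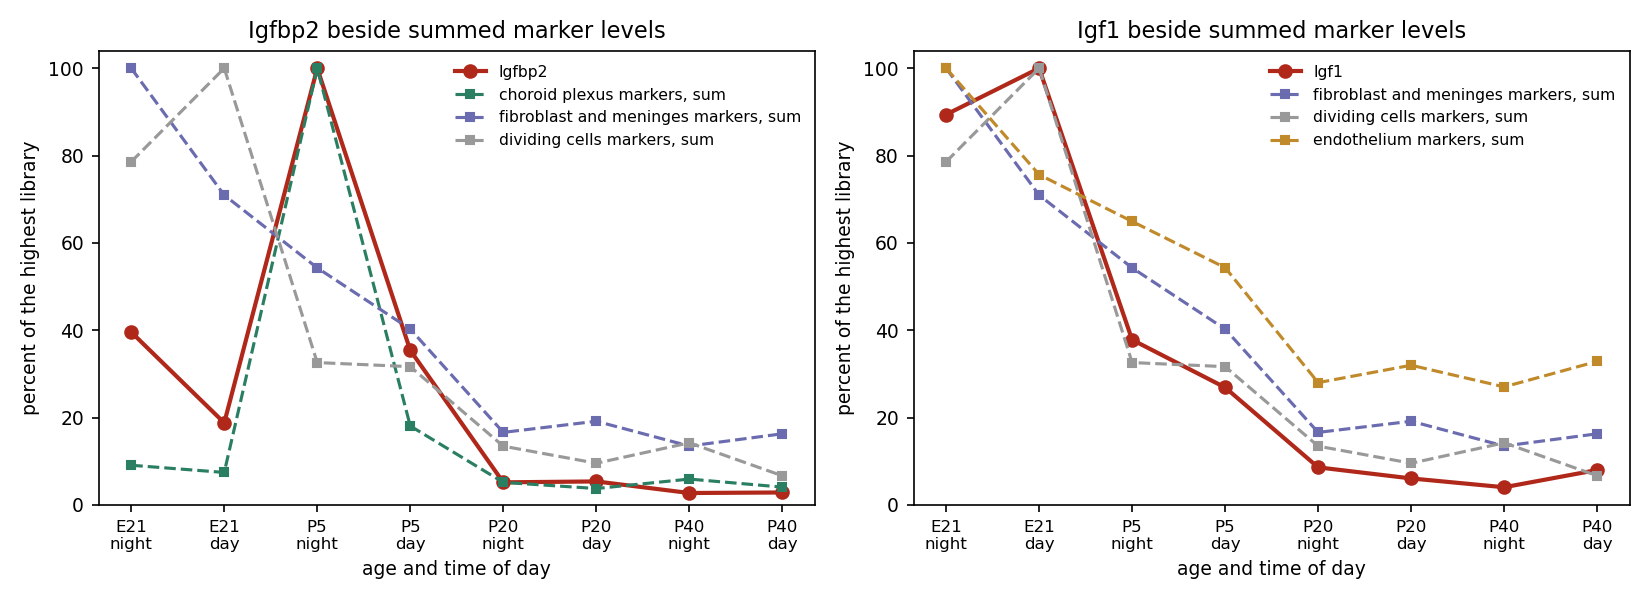
Igfbp2 (left) and Igf1 (right) in the 8 libraries beside summed marker FPKM of other cell types, each as a percent of its own highest library; lines join libraries in order of age, mid-night before mid-day, as a guide. Igfbp2 and the choroid plexus sum have their maximum in P5 mid-night (73.9 and 18520 FPKM), and Igf1 and the marker sums beside it are highest at E21. Most of the choroid plexus sum is Ttr.

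Igfbp5 (NM_012817, rn4 chr9:72003636-72016263), the neighbour of Igfbp2 on chromosome 9 and a binding protein that also attaches to extracellular matrix, took the opposite course. It had 7.23 FPKM at mid-night and 5.75 FPKM at mid-day at E21, 6.35 and 5.21 FPKM at P5, 9.46 and 9.80 FPKM at P20, and 19.6 and 33.8 FPKM at P40. Both P40 libraries exceeded all others, and the 4 libraries of E21 and P5 lay within the spread of one another as neighbours. Igfbp5 rose by 1.85 ± 0.26 at P40 against E21 (limma adjusted p = 0.00132), and all 19 alternatives kept this call. The P40 against P20 change of 1.33 ± 0.26 did not pass (limma adjusted p = 0.251). In that comparison limma called 0 of 9960 transcripts (669 at unadjusted p under 0.05) and none of the 8 members. At P40 Igfbp5 was lower at mid-night than at mid-day, with an FPKM ratio of 0.581, and the night effect over P20 and P40 was -0.40 ± 0.20 (limma adjusted p = 0.320).

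Igfbp3 (NM_012588, rn4 chr14:87959152-87967171), the main IGF carrier of the blood, had 9.69 FPKM at mid-night and 10.5 FPKM at mid-day at E21, 5.31 and 4.65 FPKM at P5, 4.27 and 3.28 FPKM at P20, and 15.2 and 11.9 FPKM at P40. Levels were high at both ends of the series and low at P5 and P20, and the libraries of E21 and P40 did not overlap with the others. How many of all tested transcripts part in this way was not counted. Igfbp3 changed over the 4 ages (limma F test, adjusted p = 0.00147), as did Igf1, Igfbp2 and Igfbp5, 4 of the 8 genes against 36.4% of all tested transcripts. It fell by 0.89 ± 0.18 at P5 against E21 (limma adjusted p = 0.0173), a call lost without E21 mid-day (0.137), P5 mid-day (0.107) or P5 mid-night (0.0930). Its change at P40 against P20, 1.60 ± 0.18, did not pass (limma adjusted p = 0.130), nor did P40 against E21 (0.38 ± 0.18, limma adjusted p = 0.134), although that change was called after median centring (0.57, limma adjusted p = 0.0451) and ran between 0.19 and 0.56 with 1 library left out.

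As a share of the summed FPKM of the 3 binding proteins, Igfbp2 made up 63.3% at mid-night and 46.1% at mid-day at E21, and 86.4% and 72.6% at P5. It made up 21.8% at mid-night and 23.3% at mid-day at P20, and 5.48% at mid-night and 4.41% at mid-day at P40. Igfbp5 made up 15.7% at mid-night and 19.1% at mid-day at E21, and 7.42% at mid-night and 14.5% at mid-day at P5. At P20 it made up 53.9% at mid-night and 57.5% at mid-day, and at P40 53.4% at mid-night and 70.8% at mid-day. The leading binding protein among these 3 was Igfbp2 in the 4 libraries of E21 and P5 and Igfbp5 in the 4 libraries of P20 and P40.

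The wider pathway was read from lists of 69 genes, of which 62 were found and 52 tested; without the 8 members 44 were tested. At P40 against E21, 7 of these 44 rose and 17 fell, with a median log2 change of -0.35, against 16.1% higher, 26.9% lower and a median of -0.18 over all tested transcripts. For night at P20 and P40, none of the 44 was higher and 1 was lower, against 2.8% and 1.59% of all, with a median of -0.12 beside -0.11 over all. Of the 24 age calls, 7 held in every alternative and 17 were lost without at least 1 library. The 7 were Igf2, Igfbp4, Igfbp6, Igfbp7, Pik3r1, Grb10 and Ddit4.

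Among ligands, Igf2, the fetal growth factor, fell by 4.11 ± 0.27 on the log2 scale at P40 against E21 (limma adjusted p = 5.1e-05), to 7.52 FPKM at mid-night and 6.47 FPKM at mid-day at P40, against 158 and 119 FPKM at E21. Igf2r, the receptor that clears IGF-2, fell by 0.72 ± 0.17, a call lost without E21 mid-night, P40 mid-day or P40 mid-night (limma adjusted p up to 0.0920). Ins1 and Ins2, the rat insulin genes, were looked at after their values were seen: Ins2 was listed at 0 in all 8 libraries and Ins1 lay between 3.21 and 35.2 FPKM with no call. Among binding proteins and their regulators, Igfbp7 rose by 2.57 ± 0.22, to 129.9 FPKM at mid-night and 115 FPKM at mid-day at P40, against 20.5 and 19.0 FPKM at E21. Igfbp6, a carrier that prefers IGF-2, rose by 1.68 ± 0.30. Igfbp4, which restrains IGF action, fell by 2.13 ± 0.22. Htra1, a protease known to cut binding proteins, rose by 1.16 ± 0.30 (called in 15 of 19 alternatives), and Stc1, a stanniocalcin, fell by 0.81 ± 0.18 (15 of 18). Both calls were lost without either P40 library, and also without E21 mid-night for Htra1 (limma adjusted p up to 0.103) or E21 mid-day for Stc1 (up to 0.0774).

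Among adaptors Shc1 fell by 1.25 ± 0.26 and Gab1 fell by 1.02 ± 0.22, calls lost without P40 mid-day for Shc1 (limma adjusted p = 0.0555) and without E21 mid-night or P40 mid-night for Gab1 (up to 0.0784). Another tested transcript of Shc1 changed by -0.42 ± 0.26 and was not called (limma adjusted p = 0.215). In the PI3K and Akt group Pik3r1, the p85 alpha regulatory subunit that binds phosphorylated substrates, fell by 2.66 ± 0.21 (limma adjusted p = 9.6e-05). It had 4.34 FPKM at mid-night and 7.90 FPKM at mid-day at P40, against 41.1 and 44.2 FPKM at E21. Pik3r3, another regulatory subunit, rose by 0.95 ± 0.18, and the catalytic subunit gene Pik3cb rose by 0.78 ± 0.18. The call of Pik3r3 was lost without P40 mid-day (limma adjusted p = 0.0564), and that of Pik3cb without E21 mid-night or either P40 library (up to 0.0734). Akt1 fell by 0.65 ± 0.18, a call lost when any of the 4 libraries of E21 and P40 was left out (up to 0.131). Rps6, a ribosomal protein and target of the pathway, fell by 1.75 ± 0.46, a call lost without E21 mid-day or P40 mid-day (limma adjusted p up to 0.117). At E21 it had 69.7 FPKM at mid-night and 258.8 FPKM at mid-day. With changes of processing counted too, Akt1 was called in 14 of 19 alternatives and Rps6 in 15 of 19.

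Among inhibitors Grb10, an adaptor that binds and restrains both receptors, fell by 2.01 ± 0.23 (limma adjusted p = 0.000557), to 13.3 FPKM at mid-night and 20.2 FPKM at mid-day at P40, against 69.4 and 68.7 FPKM at E21. Ddit4, an inhibitor of mTOR signalling, fell by 1.80 ± 0.31, and Grb14 fell by 0.68 ± 0.18. Trib3, a pseudokinase that binds Akt, rose by 1.05 ± 0.28. The FoxO genes Foxo3 and Foxo4 changed by -0.81 ± 0.25 and -1.21 ± 0.30. These calls were lost without E21 mid-night or P40 mid-night for Grb14, Trib3, Foxo3 and Foxo4 (limma adjusted p up to 0.168, 0.155, 0.272 and 0.108), and for Grb14 also without E21 mid-day. That of Foxo3 was also lost without P40 mid-day or either P5 library. With changes of processing counted too, Foxo3 was called in 9 of 19 alternatives, Grb14 in 13 of 18 and Trib3 in 15 of 18. Phlpp2, a phosphatase of Akt, was the single listed gene outside the members called for night. It fell at mid-night by 1.31 ± 0.16 over P20 and P40 (limma adjusted p = 0.00491), with 5.00 FPKM at mid-night and 14.8 FPKM at mid-day at P20 and 7.72 and 19.3 FPKM at P40. That call was lost without P20 mid-day (limma adjusted p = 0.0667) or P20 mid-night (0.0658).

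**Figure D5:**
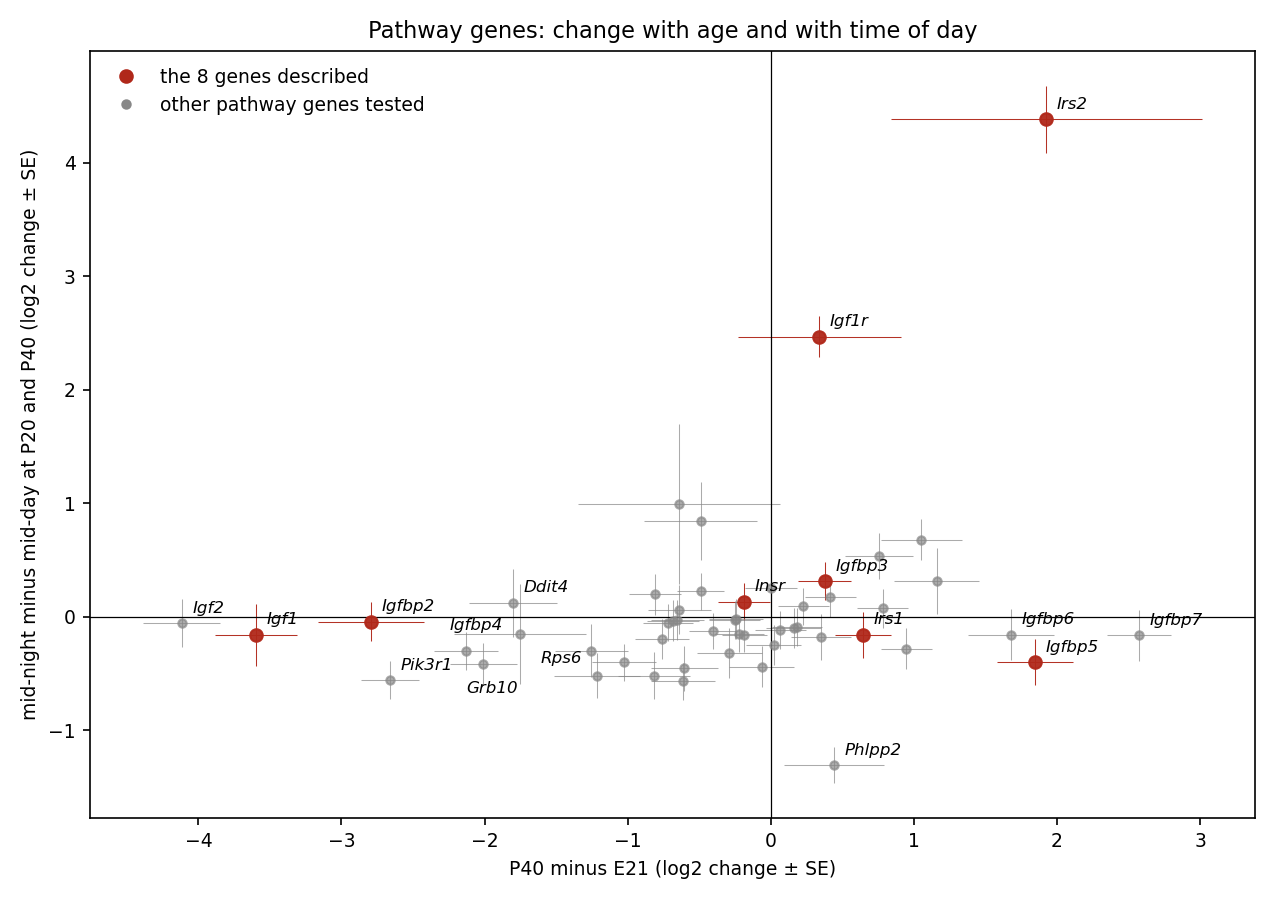
Log2 change of P40 minus E21 (horizontal) and of mid-night minus mid-day at P20 and P40 (vertical), each with its SE, for the 52 tested pathway genes; the 8 genes described are large and red, the others small and grey. Irs2 and Igf1r stand at 4.38 and 2.47 on the vertical axis, where Phlpp2 is at -1.31, while Igf2 and Igf1 lie at -4.11 and -3.60 on the horizontal axis.

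Transcripts of other genes were ranked by their correlation with each member over the 8 libraries, among 6520 transcripts of 5 FPKM or more in 2 or more libraries; the libraries share age and depth, so r is a description. The pattern most like Irs2 was that of Sik1, a salt-inducible kinase (r = 0.993), followed by Dusp1, a MAP kinase phosphatase (0.993), Crem, a cyclic AMP responsive transcription factor (0.992), B3gnt8 (0.988), Dusp8 (0.988) and Ccrl2 (0.986). Sik1 had 33.7 FPKM at mid-night and 1.07 FPKM at mid-day at P20, and 61.8 and 1.03 FPKM at P40. Dusp1 had 47.4 and 2.48 FPKM at P20, and 102 and 1.50 FPKM at P40, in the same order. Igf1r had r = 0.932 with Irs2, which placed it at rank 57 of the 6520 transcripts, counting Irs2 itself.

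For Igf1r the nearest transcripts were Cacna1g, a T-type calcium channel (0.976), and B3gnt8 (0.971). Igf1 was nearest to Sdc1, syndecan 1 (0.997), and Mex3b (0.993), and Igfbp2 to Mmp2, a matrix metallopeptidase (0.997), and Atp2b3, a calcium pump (0.993). Mmp2 had 52.6 FPKM at mid-night and 22.6 FPKM at mid-day at P5, and 3.50 and 4.61 FPKM at P40. Igfbp5 was nearest to Zc3hav1 (0.971) and Ddx58 (0.965), both of which encode antiviral RNA-binding proteins. Irs1, over a narrow range of levels, was nearest to Fitm2 (0.975) and Gak (0.975), and Igfbp3 to Mcts1 (0.968) and Cacybp (0.951). The lowest values were those of Insr, with Fahd2a (0.910) and LOC498145 (0.890).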

How the data were processed

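Polyadenylated RNA of pooled rat pineal glands was sequenced as paired ends of 101 bases, per the labels' protocols, in 8 libraries, 1 for each of 4 ages and 2 times of day. The authors deposited FPKM for each RefSeq transcript, made with TopHat 1.3.1 and Cufflinks 1.2.0 on build rn4 per the submitters' processing notes. Scaling between libraries and filters are not given in the sources used here. Counts were not used. Relative depth was taken from the smallest steps that FPKM values take among the transcripts of short olfactory receptor genes (span up to 1100 bp); no counting intervals can be given.

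The 9960 transcripts of 1 FPKM or more in 2 or more libraries were analysed as log2(FPKM + 1). Models were fitted by limma 3.58.1 (R 4.3.3; eBayes, trend allowed; two-sided tests), and p-values were adjusted over all 9960 by Benjamini-Hochberg, with calls under 0.05. Age comparisons came from a model of age plus time of day, leaving 3 residual degrees of freedom. Night effects came from a model of age plus separate night effects for the younger pair of ages (E21, P5) and the older pair (P20, P40), leaving 2. The spread of a difference is the SD of a difference between 2 libraries in that second model. Orders of libraries are descriptions, and how many of all transcripts share such an order was not counted. Members and lists were chosen with earlier results of these data known. A gene with several transcripts was represented by the transcript of highest mean FPKM. All members are named; of each pathway list, up to 4 called genes each way of highest mean FPKM, of which some are counted but not reported by name here; the 6 transcripts most like Irs2 and the 2 most like each other member. Alternatives were pseudocounts of 0.1 and 5, quantile normalization, median centring, no filter, a filter at 5 FPKM, robust eBayes, 2 night effects for age, and leaving out libraries. Levels of P40 and E21 at 1 time of day and the sum of Igf1 transcripts were added after the data were seen. Promoters are RefSeq sequences on GRCr8. Figures were drawn with matplotlib 3.10.9.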

Additional observations from a re-analysis of the deposited data

Results flagged for a closer look

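For 2 genes the effect of night differed between the older and the younger ages by a test of the difference itself. The mid-night minus mid-day change of Irs2 was larger at P20 and P40 than at E21 and P5 by 4.14 on the log2 scale (limma adjusted p = 0.0113). That of Igf1r was larger by 2.14 (limma adjusted p = 0.0200). Both genes were higher at mid-night at 2 of 2 older ages. The limits of these calls when single libraries are left out stand beside the values above.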

How the results depend on the processing

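Replicate numbers pair no libraries, since every age and time is a single pool; the night models compared mid-night with mid-day within each age. The night effects of Irs2 and Igf1r at P20 and P40 were called under all 16 alternatives, with log2 changes between 3.22 and 5.04 for Irs2 (limma adjusted p up to 0.0330) and between 1.84 and 2.69 for Igf1r (up to 0.0267). The difference of night effects was called for Irs2 in 10 of 15 alternatives and for Igf1r in 6 of 15. With no filter it was called for 0 of 8 members, and 0 transcripts in all. With 2 night effects in the age model, 3 more members passed for P5 against E21, all higher. They were Irs2 (1.21, limma adjusted p = 0.0254), Igfbp2 (1.09, 0.00504) and Igf1r (0.65, 0.0377). The share of all tested transcripts higher in that run is not reported here, so these calls are not set against it. In the same model Irs2 passed for P40 against E21 (1.92, limma adjusted p = 0.00151). Depth limits low values most in P20 mid-day. The cause was not tested for any of these changes.

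Counts of called transcripts moved as follows. A filter at 5 FPKM gave 2322 for the age F test, 2838 for P40 against E21 and 372 for P20 against P5, with fewer transcripts tested. P20 against P5 gave 397 with a pseudocount of 5, 373 with no filter and 1258 with 2 night effects, and P40 against P20 gave 1 with a pseudocount of 0.1. Night at P20 and P40 gave 105 with no filter and 266 without both P5 libraries. Night at E21 and P5 gave 1 with quantile normalization and 0 with a pseudocount of 5, median centring, no filter or a filter at 5 FPKM. The difference of night effects gave 37 with a pseudocount of 5. The E21 and P5 night effect and the difference were not run without both P5 libraries, and Insr was not tested at 5 FPKM.

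Leaving out 1 library at a time gave 2369 to 3347 transcripts for the age F test, 2333 to 4253 for P40 against E21 (3 to 4 members), 484 to 1422 for P5 against E21 (0 to 2), 50 to 725 for P20 against P5 (0 to 2), 150 to 267 for night at P20 and P40 (2), 0 to 2 for night at E21 and P5 (0) and 6 to 64 for the difference (0 to 1). Uncalled members that changed sign in these runs were Irs1 (-0.375 to 0.078) and Igf1 (-0.86 to 0.23) for the difference. For P40 against E21 this was Igf1r (-0.524 to 1.201). For P5 against E21 they were Irs2 (-0.33 to 2.74), Igfbp5 (-0.378 to 0.094) and Igf1r (-0.215 to 1.51). For P20 against P5 they were Irs1 (-0.16 to 0.10), Insr (-0.10 to 0.18), Igf1r (-0.90 to 0.64) and Irs2 (-0.68 to 1.76). For P40 against P20 they were Irs2 (-1.634 to 1.995), Igf1 (-0.71 to 0.23) and Igf1r (-0.95 to 0.59). For night they were Igf1 (-0.71 to 0.39) at P20 and P40, and Igf1 (-0.16 to 0.46), Igfbp3 (-0.11 to 0.16) and Irs1 (-0.24 to 0.21) at E21 and P5.

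Other uncalled values changed sign with scaling. Quantile normalization gave 0.046 for Insr at P40 against E21, 0.054 for Irs1 at P20 against P5, 0.089 for Igfbp2 at night at P20 and P40, and -0.009 for Igfbp3 and 0.039 for Irs1 at night at E21 and P5. Median centring gave 0.004 for Insr at P40 against E21, 0.177 for Irs1 and 0.079 for Igf1r at P20 against P5, 0.067 for Igfbp2 at night at P20 and P40 and -0.007 for Igfbp3 at night at E21 and P5. At mid-day levels P40 against E21 gave -0.14 for Irs2 and -0.73 for Igf1r, the value of Igf1r being called (limma adjusted p = 0.0336).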
